A study of Homo sapiens with 2 samples.

Results

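The genes described here encode cytosolic and mitochondrial heat shock proteins, their J-domain partners and the BAG family of exchange factors, measured in ACHN cells after depletion of the integrin adaptor Kindlin-2. ACHN is an established human renal carcinoma line, described in the labels as clear cell. One culture carried a short hairpin RNA (shRNA) against Kindlin-2 and the other a control shRNA, and both grew in serum-containing medium with G418, a drug that selects transfected cells. Whether a culture was a clone or a pool, and how many hairpin sequences were used, is not given in the labels. RNA of each culture went to 1 Affymetrix Human Gene 1.0 ST array, so there was no replicate (n = 1 array in each group). Every difference below therefore describes these 2 arrays and carries no p-value.

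Members were taken by gene symbol. The symbol had to start with HSPA, HSPB, HSPD, HSPE, HSPH, HSP90AA, HSP90AB, DNAJA, DNAJB, DNAJC or BAG before a number, and 6 chaperones of the endoplasmic reticulum (HSPA5, HSPA13, DNAJB9, DNAJB11, DNAJC3 and DNAJC10) were left out. This gave 77 of the 18417 genes measured by a transcript cluster (a set of probes summarised to 1 value) that carries a single gene symbol. Of the 77, RefSeq lists 66 as protein-coding and 11 as pseudogenes, most of them copies of the HSP90 genes. Genes were kept if either log2 value reached 6.52, the median of all values, which left 59 members (54 protein-coding and 5 pseudogenes) among 11822 genes. Not all of them are cytosolic or mitochondrial. The 54 include DNAJB12, DNAJB14, DNAJC1, DNAJC14, DNAJC16, DNAJC18 and DNAJC22, which were listed as J proteins of the endoplasmic reticulum or its membrane, and DNAJC9, a nuclear histone co-chaperone.

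Heat shock proteins are ATP-driven or ATP-independent holdases and foldases that bind unfolded stretches of client proteins. Hsp70 cycles between open and closed forms: J proteins bring clients and trigger ATP hydrolysis, and Hsp110 and BAG proteins release the nucleotide so that the client can leave. Hsp90 finishes the folding of kinases and nuclear receptors, Hsp60 with Hsp10 folds proteins inside mitochondria, and small heat shock proteins hold unfolded clients without ATP. Heat shock factor 1 (HSF1) drives many of these genes through heat shock elements in their promoters. Renal carcinoma cells, like most cultured tumour cells, express the cytosolic chaperones without heat.

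The data were RMA values on a log2 scale, with medians over all transcript clusters of 6.53 in Kindlin-2 shRNA and 6.51 in control shRNA. FERMT2, which encodes Kindlin-2, had 8.26 in Kindlin-2 shRNA and 9.37 in control shRNA, 46.4% of the control level, so the targeted transcript was lower in the array labelled as its knockdown. The renal transcription factor PAX8 had 11.29 in Kindlin-2 shRNA and 11.43 in control shRNA, and all 7 renal epithelial markers with a value were kept, 6 of them lower in Kindlin-2 shRNA. Their summed linear level was 21277 in Kindlin-2 shRNA and 25440 in control shRNA. Of 5 proximal tubule markers with a value 2 were kept, and they went in opposite directions. SLC34A1 had 7.11 in Kindlin-2 shRNA and 6.76 in control shRNA, and GATM had 7.40 in Kindlin-2 shRNA and 8.05 in control shRNA. LRP2, CUBN and AQP1 were dim on both arrays. None of 6 endothelial markers reached the floor. Of 6 leukocyte markers with a value 1 did, the lysosomal protein gene CD68, with 10.25 in Kindlin-2 shRNA and 9.01 in control shRNA, while the defining marker PTPRC had 3.54 in Kindlin-2 shRNA and 3.53 in control shRNA. Of 7 fibroblast and smooth muscle markers 4 were kept, with a summed linear level over all 7 of 1896 in Kindlin-2 shRNA and 3476 in control shRNA, while DCN and LUM lay under 3.5 on both arrays. Among the 4 kept, RGS5, PDGFRB and ACTA2 lay lower in Kindlin-2 shRNA (log2 differences of -1.16, -0.77 and -0.76). COL1A1 lay higher (0.17). Both samples are bulk cultures of 1 cell line, ACHN. Fewer cells that express a gene and less of its RNA per cell cannot be told apart in them. The part of these marker differences in the results below was not tested.

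Members as a group lay slightly higher in Kindlin-2 shRNA, and the classes differed in direction. Of the 59 members kept, 36 had a positive difference (Kindlin-2 shRNA minus control shRNA, log2), against 46.4% of all genes kept, and their median difference was 0.12 against -0.02 over all genes kept. Over all 77 members, dim ones included, 45 were positive and the median was 0.10. At least 1.5-fold higher in Kindlin-2 shRNA were 6 of the 59 members, of which 4 were HSP90 pseudogenes, beside 5.1% of all genes kept. At least 1.5-fold lower were 2 of the 59, beside 5.23% of all genes kept. HSP90AA6P among the higher and DNAJC22 among the lower ones were kept only through the array where each is high, and with the filter on the mean of both values the counts were 5 and 1 of 56. Without a filter the counts were the same 6 and 2 of 77, against 3.77% and 3.81% of all 18417 genes. The protein-coding members alone gave 2 higher and 2 lower of 54, which is near the background share in both directions, and a median of 0.10. The split of 6 to 2 was 6 to 0 with each chromosome's median difference subtracted, and 4 to 0 with the median of the 50 nearest kept genes subtracted. The 6 with chromosome medians were not the same genes, since HSP90AA4P no longer passed 1.5-fold and DNAJB6 did. The shares of all genes kept were then 4.95% higher and 3.97% lower with chromosome medians, and 4.71% higher and 4.03% lower with neighbour medians.

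**Figure D1:**
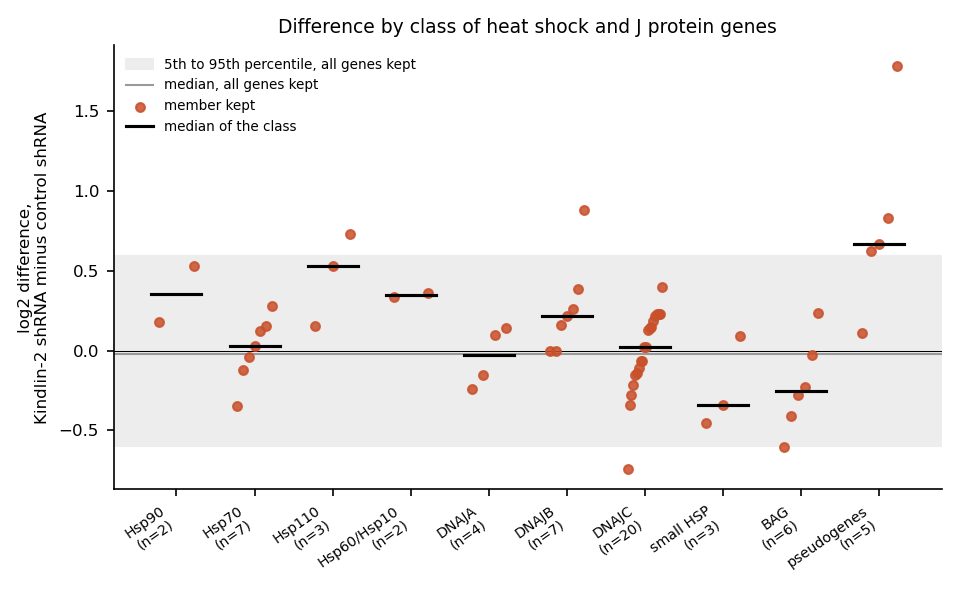
Log2 difference (Kindlin-2 shRNA minus control shRNA, vertical axis) of each member kept, by class, with 1 point per gene and a bar at the class median. The grey band spans the 5th to 95th percentile of all genes kept (-0.60 to 0.59). Hsp90, Hsp110 and Hsp60/Hsp10 points all lie above 0, and most BAG and small heat shock protein points lie below it.

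Of 14 kept members of the Hsp90, Hsp70, Hsp110 and Hsp60/Hsp10 classes, 11 had a positive difference, with a median of 0.17, or 10 and 0.13 less their neighbours. The 7 Hsp70 genes among them had 4 positive and a median of 0.03, or 3 and -0.01 less their neighbours. Of 9 kept BAG and small heat shock protein genes 2 had a positive difference, with a median of -0.28, or -0.12 less their neighbours. The 31 kept J proteins lay between, with 18 positive and a median of 0.10. The pools join separate classes and, like the members and lists, were made with earlier results of these data known. These splits were described on 1 array per group, with no test.

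Hsp90 binds clients late in folding, and its gene HSP90AA1 encodes the stress-inducible cytosolic form while HSP90AB1 encodes the constitutive one. HSP90AA1 had 12.33 in Kindlin-2 shRNA and 11.80 in control shRNA, a difference of 0.53 or 1.44-fold. HSP90AB1 had 12.19 in Kindlin-2 shRNA and 12.01 in control shRNA, a difference of 0.18. The inducible form thus had the larger difference of the pair on these arrays, and with the medians of neighbouring genes subtracted the differences were 0.58 for HSP90AA1 and 0.36 for HSP90AB1.

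Of the 5 HSP90 pseudogenes kept, 4 were at least 1.5-fold higher in Kindlin-2 shRNA. HSP90AA6P had 7.27 in Kindlin-2 shRNA and 5.49 in control shRNA, a difference of 1.78, but its control value lies under the floor, so no fold is given and it was kept only through its Kindlin-2 shRNA value. HSP90AA2P had 10.49 in Kindlin-2 shRNA and 9.67 in control shRNA (1.77-fold). HSP90AB3P had 10.11 in Kindlin-2 shRNA and 9.44 in control shRNA (1.59-fold). HSP90AA4P was 1.54-fold higher, with 7.45 in Kindlin-2 shRNA and 6.83 in control shRNA, and HSP90AB2P differed by 0.11. The 4 differences past 1.5-fold were larger than the 0.53 of HSP90AA1. Less their neighbours, HSP90AB3P stood at 0.56 and HSP90AA4P at 0.47, both under 1.5-fold. HSP90 pseudogenes are known as near copies of the HSP90 genes, and whether their clusters read HSP90AA1 or HSP90AB1 messages was not tested. The other pseudogenes, HSP90AA5P, HSP90AB4P, HSP90AB5P, HSP90AB6P, DNAJA1P5 and DNAJB3, were dim on both arrays, with differences from -0.25 to 0.27.

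Hsp110 proteins are exchange factors of Hsp70 and relatives of it, and all 3 lay above 0. HSPH1 (Hsp105), which is strongly heat-inducible, had 11.54 in Kindlin-2 shRNA and 10.81 in control shRNA, a difference of 0.73 or 1.66-fold, rank 370 from the top of 11822 genes. HSPA4L (Apg-1) had 9.87 in Kindlin-2 shRNA and 9.34 in control shRNA (0.53, 1.44-fold). HSPA4 (Apg-2) had 10.11 in Kindlin-2 shRNA and 9.95 in control shRNA (0.15). The genes near HSPH1 also lay above 0, with a median of 0.22 over the 50 nearest, and HSPH1 less that median stood at 0.51, under 1.5-fold.

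Among the Hsp70 genes the constitutive cytosolic HSPA8 (Hsc70) had 13.23 in Kindlin-2 shRNA and 12.96 in control shRNA, a difference of 0.28. HSPA9 (mortalin), the Hsp70 of mitochondria, had 11.86 in Kindlin-2 shRNA and 11.70 in control shRNA (0.15). Neither reached 1.5-fold. The other kept Hsp70 genes had differences of 0.12 for HSPA6, 0.03 for HSPA12B (-0.22 less its neighbours on chromosome 20), -0.04 for the ribosome-associated HSPA14, -0.12 for HSPA2, known from testis, and -0.35 for the atypical HSPA12A. HSPA1L, also known from testis, was dim on both arrays (5.07 in Kindlin-2 shRNA and 4.85 in control shRNA).

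The chief heat-inducible Hsp70 genes, HSPA1A and HSPA1B, have no cluster of their own on the array, because their near-identical messages share clusters with both symbols. They therefore fall outside the 77 members. The 5 clusters named for both genes had 9.57 to 9.80 in Kindlin-2 shRNA and 9.04 to 9.20 in control shRNA, and their differences ran from 0.49 to 0.62, on both sides of 1.5-fold. A cluster named for HSPA6 and the pseudogene HSPA7 together had 8.98 in Kindlin-2 shRNA and 8.21 in control shRNA (0.77, 1.70-fold), whereas the cluster named for HSPA6 alone had 6.67 in Kindlin-2 shRNA and 6.55 in control shRNA. HSPA6 is known as a strictly heat-induced gene, and the 2 clusters that carry its symbol differ. Which gene the signal of the shared cluster came from was not tested.

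Hsp60 (HSPD1) and its lid Hsp10 (HSPE1) fold proteins in the mitochondrial matrix and are transcribed from a shared promoter in opposite directions. HSPD1 had 11.75 in Kindlin-2 shRNA and 11.39 in control shRNA, a difference of 0.36. HSPE1 had 9.11 in Kindlin-2 shRNA and 8.78 in control shRNA, a difference of 0.33. The pair lies on chromosome 2, where the 50 nearest genes had a median of 0.22. Less that median the differences were 0.14 for HSPD1 and 0.11 for HSPE1.

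Promoters were searched for the heat shock element because several of these genes are textbook HSF1 targets. The element was written as 3 alternating units, GAANNTTCNNGAA or TTCNNGAANNTTC, which read as each other on opposite strands, and the RefSeq windows ran from 250 bases before to 50 bases after each gene start. A match was found for 166 of 27305 genes (0.608%) and for 7 of the 59 members that have such a window in the RefSeq table (11.9%), a number that equals the count of members kept but is another set. The 7 are HSP90AA1, HSP90AB1, HSPA6, HSPA8, HSPD1, DNAJA1 and DNAJB6. The stretches around the matches are shown 5′ to 3′ on the strand of the gene, in GRCh38.p14, with the matches in capitals, so that the spelling of the elements can be compared between genes with different values. The DNAJA1 stretch ends with its match, which lies just past the gene start.

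HSP90AA1, chr14:102087100-102087152, minus strand: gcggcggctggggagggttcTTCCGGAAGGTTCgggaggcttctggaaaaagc
HSP90AB1, chr6:44247758-44247863, plus strand: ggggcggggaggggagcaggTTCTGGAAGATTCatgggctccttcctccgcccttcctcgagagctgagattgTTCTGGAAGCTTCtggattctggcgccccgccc
HSPA8, chr11:123062159-123062211, minus strand: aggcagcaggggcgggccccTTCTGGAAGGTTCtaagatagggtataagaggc
HSPA6, chr1:161524446-161524498, plus strand: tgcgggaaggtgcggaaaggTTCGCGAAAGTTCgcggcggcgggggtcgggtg
HSPD1, chr2:197500048-197500090, minus strand: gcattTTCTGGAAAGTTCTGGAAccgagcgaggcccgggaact
DNAJB6, chr7:157336853-157336905, plus strand: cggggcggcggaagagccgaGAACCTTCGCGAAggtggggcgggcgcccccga
DNAJA1, chr9:33025256-33025288, plus strand: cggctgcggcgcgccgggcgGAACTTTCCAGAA

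The HSP90AB1 stretch holds 2 separate elements, and in HSPD1 a pair overlaps into one longer run. HSPA8 has a second match further from its start, not shown. Of these 7 genes 6 had a positive difference, with DNAJA1 the exception, and their median was 0.28. Of the 42 kept protein-coding members with a window and no match 23 were positive, with a median of 0.06. HSPE1 (0.33) counts among the 42, although it shares a promoter with HSPD1, which counts among the 7. With neighbour medians subtracted all 7 were positive with a median of 0.19, and the 42 had a median of 0.07. DNAJB6 is counted here by its brighter cluster. Its other cluster had -0.23, beside a neighbour median of -0.22, so its sign in both counts depends on the cluster. All of the 7 but HSPA6 had a mean value of at least 10. The 12 kept protein-coding members at that level had a median of 0.17, and those under it a median of 0.03. The split by match thus overlaps a split by signal level, whose part was not tested. DNAJB4 and HSPH1, the protein-coding members with the largest positive differences, had no match in this window. The split depends on the spelling: a 2-unit element, GAANNTTC or TTCNNGAA, which the longer one contains, was found for 16.2% of genes and for 21 of the 59 members (35.6%). Of the kept protein-coding members, the 17 with a 2-unit match had 12 positive and a median of 0.15, and the 32 without had 17 positive and a median of 0.02. DNAJB4 has such a match, and so do HSPB1, HSPB8 and BAG2, which lay lower in Kindlin-2 shRNA. A match describes letters only, and no match says only that these letters are not in the window.

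**Figure D2:**
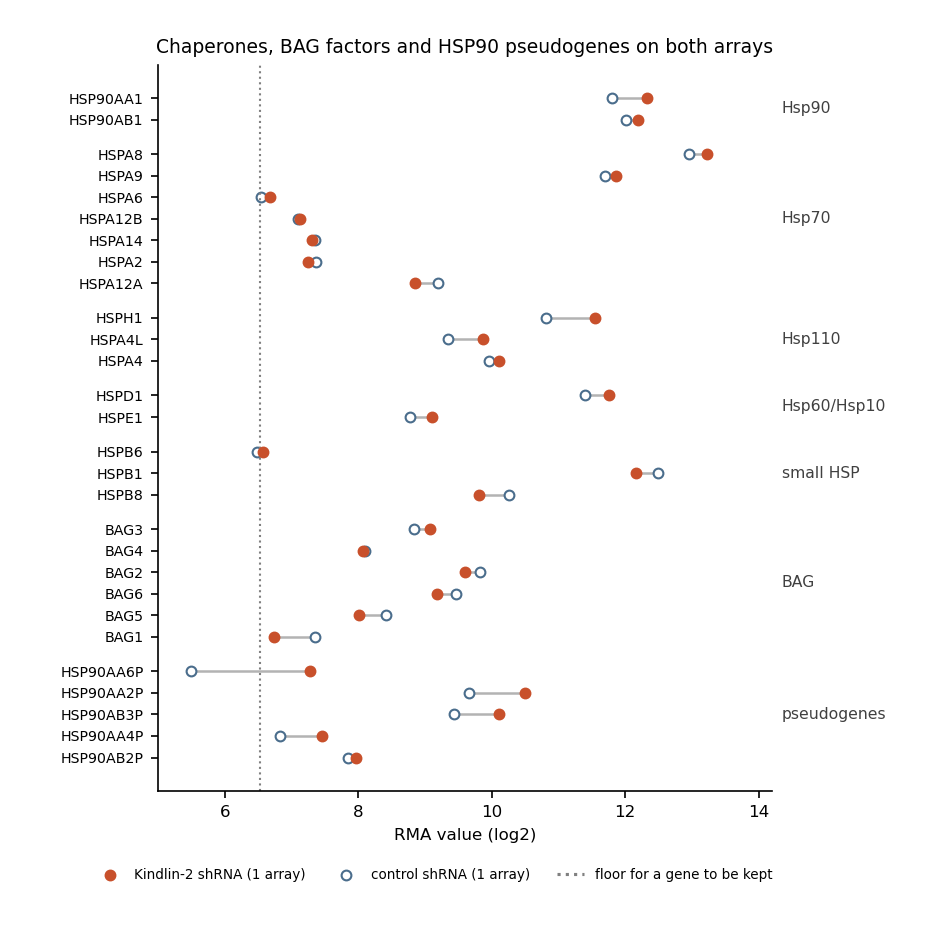
RMA values (log2, horizontal axis) of the kept chaperone, BAG and pseudogene members, with filled points for Kindlin-2 shRNA and open points for control shRNA (1 array each), and the floor of 6.52 as a dotted line. The filled point lies to the right for all Hsp90, Hsp110, Hsp60/Hsp10 and pseudogene entries, and to the left for HSPB1, HSPB8 and 5 of the 6 BAG genes.

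J proteins choose the clients of Hsp70 and start its cycle. In the DNAJB class, which includes the stress-inducible members, 5 of 7 kept genes had a positive difference, 1 was equal on both arrays, and the class median was 0.22. DNAJB4 (HLJ1), a heat-inducible partner of Hsp70, had 9.12 in Kindlin-2 shRNA and 8.24 in control shRNA. Its difference of 0.88 (1.84-fold) was the largest of any protein-coding member and rank 242 from the top of 11822 genes, and it was 0.82 with neighbours subtracted. DNAJB1 (Hsp40), the main stress-inducible J protein, had 9.29 in Kindlin-2 shRNA and 9.13 in control shRNA, a difference of 0.16. DNAJB2, a neuronal ubiquitin-linked J protein, differed by 0.26, DNAJB14 by 0.22 and DNAJB5 by -0.01, and DNAJB12 had the same value of 7.64 on both arrays.

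DNAJB6, a suppressor of polyglutamine aggregation, had 2 clusters that disagree. The one that represents the gene here had 11.12 in Kindlin-2 shRNA and 10.73 in control shRNA, a difference of 0.39. The other, which the platform annotation ties to a different RefSeq transcript, had 8.88 in Kindlin-2 shRNA and 9.11 in control shRNA, a difference of -0.23. The gene lies on chromosome 7, whose 551 kept genes had a median of -0.22, and the first cluster less its neighbours stood at 0.60, above 1.5-fold.

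The DNAJA class, the closest relatives of bacterial DnaJ, showed small differences in both directions. DNAJA1, a farnesylated cytosolic J protein, had 10.43 in Kindlin-2 shRNA and 10.67 in control shRNA, a difference of -0.24. It lies on chromosome 9, where the 50 nearest genes had a median of -0.34, and less that median it stood at 0.10. DNAJA2 had 9.39 in Kindlin-2 shRNA and 9.25 in control shRNA (0.14, and -0.04 less its neighbours). The mitochondrial DNAJA3 (Tid1) differed by -0.15 and DNAJA4 by 0.10.

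The DNAJC class is held together only by the J domain, and its members serve separate tasks. Of 20 kept genes 11 were positive and 9 negative, with a median of 0.02, and only DNAJC22 passed 1.5-fold. DNAJC21, a ribosome biogenesis factor of the large subunit, had 9.12 in Kindlin-2 shRNA and 8.73 in control shRNA (0.40, 1.32-fold). DNAJC22 had 5.80 in Kindlin-2 shRNA and 6.54 in control shRNA (-0.74, 1.67-fold lower), but it was kept only through its control value, which lies just above the floor, and it stood at -0.54 less its neighbours on chromosome 12.

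The endosomal DNAJC13 (RME-8) had 9.97 in Kindlin-2 shRNA and 9.83 in control shRNA, a difference of 0.15. The Hsp70 and Hsp90 adaptor DNAJC7 (TPR2) had 9.99 in Kindlin-2 shRNA and 10.05 in control shRNA, a difference of -0.07. The synaptic vesicle chaperone DNAJC5 (0.23), DNAJC12 (0.23), a partner of aromatic amino acid hydroxylases, and the splicing-related DNAJC8 (0.23) and DNAJC17 (0.22) lay above 0. So did DNAJC11 of the mitochondrial inner membrane organising system (0.19), DNAJC1 (0.14), the histone partner DNAJC9 (0.13), DNAJC14 (0.02) and DNAJC19 (0.02), a motor component of mitochondrial import.

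Below 0 were DNAJC4 (-0.34), the auxilin DNAJC6 (-0.28), the ribosome-bound DNAJC2 (-0.22), DNAJC16 (-0.15), the mitochondrial DNAJC30 (-0.14), DNAJC27 (-0.11) and DNAJC18 (-0.06). DNAJC6 and DNAJC27 reached the floor only in control shRNA. A second cluster of DNAJC19 had -0.22, so the sign of that gene depends on the cluster. Of the 7 J proteins listed as mitochondrial, 5 were kept, 2 of them above 0, with a median of -0.14. Less their neighbours 2 were above 0 and the median was -0.04.

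**Figure D3:**
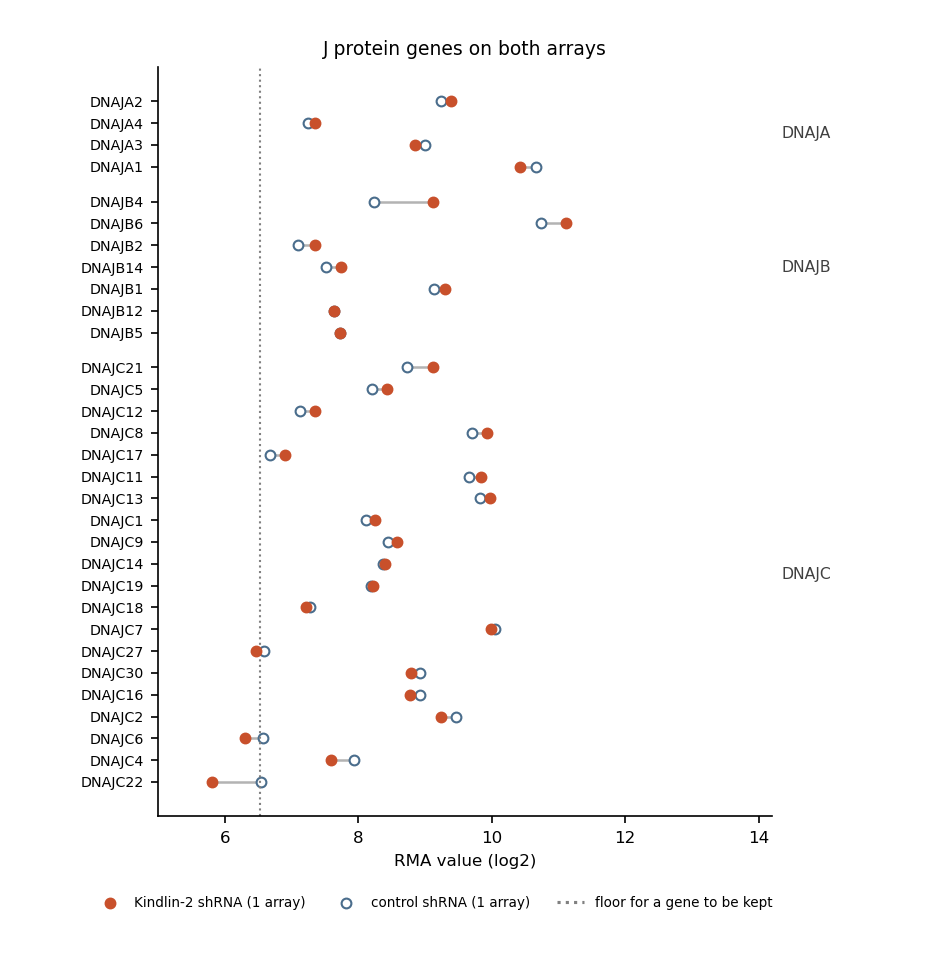
RMA values (log2, horizontal axis) of the 31 kept J protein genes, with filled points for Kindlin-2 shRNA and open points for control shRNA (1 array each), and the floor of 6.52 as a dotted line. DNAJB4 has the widest gap to the right (9.12 in Kindlin-2 shRNA and 8.24 in control shRNA) and DNAJC22 the widest to the left (5.80 in Kindlin-2 shRNA and 6.54 in control shRNA).

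The small heat shock proteins with values well above the floor lay lower in Kindlin-2 shRNA. HSPB1 (Hsp27), which binds actin and unfolded clients, had 12.16 in Kindlin-2 shRNA and 12.50 in control shRNA, a difference of -0.34 or 1.27-fold lower. HSPB8 (Hsp22), the partner of BAG3 in selective autophagy, had 9.80 in Kindlin-2 shRNA and 10.26 in control shRNA, a difference of -0.45 or 1.37-fold lower. Neither passed 1.5-fold. HSPB1 lies on chromosome 7 and HSPB8 on chromosome 12, and less their neighbours HSPB1 stood at -0.16 and HSPB8 at -0.12. HSPB6 (Hsp20) sat at the floor, with 6.58 in Kindlin-2 shRNA and 6.49 in control shRNA. HSPB3, HSPB7 and HSPB9 were dim on both arrays.

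BAG proteins bind the ATPase domain of Hsp70 and link it to other pathways, and 5 of the 6 lay below 0. BAG1, which couples Hsp70 to the proteasome and to BCL2, had 6.74 in Kindlin-2 shRNA and 7.35 in control shRNA, a difference of -0.60 or 1.52-fold lower. BAG5, known to inhibit the ubiquitin ligase parkin, had 8.01 in Kindlin-2 shRNA and 8.42 in control shRNA (-0.41). BAG6, which guides tail-anchored and mislocalised proteins, had 9.19 in Kindlin-2 shRNA and 9.47 in control shRNA (-0.28), and its 3 clusters, of which 2 held identical values, ran from -0.28 to -0.27. BAG2, an inhibitor of the ubiquitin ligase CHIP, had 9.60 in Kindlin-2 shRNA and 9.82 in control shRNA (-0.23).

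BAG4, the silencer of death domains, differed by -0.03. The exception was BAG3, the heat-inducible member that directs clients to autophagy, with 9.08 in Kindlin-2 shRNA and 8.84 in control shRNA (0.24). BAG1 lies on chromosome 9, and less its 50 nearest genes it stood at -0.27, under 1.5-fold. BAG5 lies on chromosome 14 among genes with a median of -0.08 and stood at -0.33. With neighbours subtracted 1 of the 6 BAG genes was above 0 and the class median was -0.13 in place of -0.25. With chromosome medians subtracted BAG4 also lay above 0 (0.03) and the median was -0.21.

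Chromosomal position moved with these differences, and its part in them was not tested. Kept genes of chromosomes 9, 7 and 12 had medians of -0.31, -0.22 and -0.21, and those of chromosome 20 a median of 0.26. Of the 10 protein-coding members kept on chromosomes 7, 9 and 12, 8 lay below 0, both members that passed 1.5-fold downward among them, and their median was -0.23. With neighbours subtracted their median was 0.04 and 6 of 10 were above 0. The 42 members kept outside these 3 chromosomes and chromosome 20 had a median of 0.14, with 27 above 0, and a median of 0.11 with neighbours subtracted. DNAJB5 on chromosome 9 differed by -0.01 and stood at 0.34 less neighbours whose median was -0.35.

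**Figure D4:**
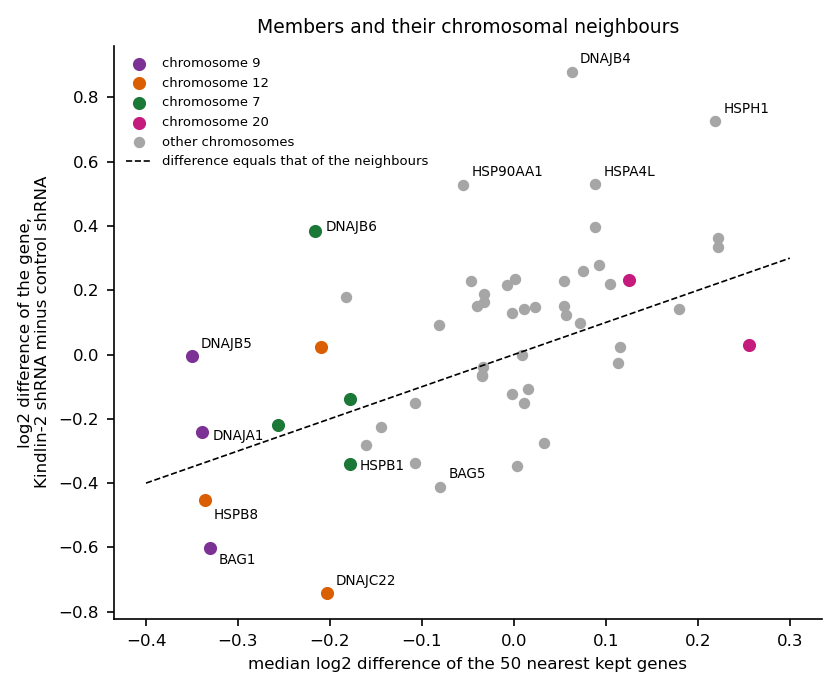
Log2 difference of each kept protein-coding member (vertical axis, Kindlin-2 shRNA minus control shRNA) against the median difference of the 50 nearest kept genes on its chromosome (horizontal axis). Most points of chromosomes 7, 9 and 12 lie at the lower left (DNAJC22, BAG1 and HSPB8 lowest), while DNAJB4, HSPH1, HSP90AA1 and HSPA4L stand above the dashed line where a gene equals its neighbours.

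The remaining 12 protein-coding members did not reach the floor on either array. They were DNAJB7, DNAJB8 and DNAJB13, known from testis, DNAJC5B, DNAJC5G, DNAJC15, DNAJC24, DNAJC28, HSPA1L, HSPB3, HSPB7 and HSPB9. Their differences ran from -0.33 (HSPB7) to 0.22 (HSPA1L). DNAJC15, a mitochondrial J protein, had 3.67 in Kindlin-2 shRNA and 3.54 in control shRNA. The table has no detection calls, so a dim value is not shown to be absence.

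Related folding factors were taken from lists written for this comparison. In the cytosolic chaperonin TRiC, which folds actin and tubulin, all 8 kept subunits lay above 0 but none passed 1.5-fold, with a median of 0.20 and TCP1 at 0.32 as the highest. Prefoldin and its relatives, which hand actin and tubulin to TRiC, had 1 of 9 higher and 1 of 9 lower by 1.5-fold and a median of 0.19. PFDN4 had 8.49 in Kindlin-2 shRNA and 7.68 in control shRNA (1.75-fold), and PFDN5 had 8.75 in Kindlin-2 shRNA and 9.53 in control shRNA (1.72-fold lower). PFDN4 lies on chromosome 20 and PFDN5 on chromosome 12, in the direction of each chromosome's median, and less their neighbours PFDN4 stood at 0.52 and PFDN5 at -0.53.

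Of 22 kept co-chaperones of Hsp90 and Hsp70, 3 were at least 1.5-fold higher and none lower, with a median of 0.07. The shares of all genes kept were 5.1% higher and 5.23% lower. CACYBP, a partner of SGT1 and of the ubiquitin ligase SIAH1, had 11.27 in Kindlin-2 shRNA and 10.40 in control shRNA (1.83-fold). CHORDC1 (morgana), a heat-inducible Hsp90 partner, had 9.44 in Kindlin-2 shRNA and 8.73 in control shRNA (1.64-fold). HYOU1, the third, had 9.88 in Kindlin-2 shRNA and 8.87 in control shRNA (2.02-fold), and it is the Hsp110 of the endoplasmic reticulum, not a cytosolic protein. The Hsp70-Hsp90 organising protein STIP1 (HOP) differed by 0.37, and the Hsp90-binding immunophilin FKBP4 by -0.40. Less their neighbours STIP1 stood at 0.49 and FKBP4, on chromosome 12, at -0.15. TSC1 had the lowest difference of the list, -0.52, or -0.31 less its neighbours.

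HSF1 had 8.67 in Kindlin-2 shRNA and 9.18 in control shRNA, a difference of -0.50, or -0.39 less its neighbours. HSBP1, a negative regulator that binds HSF1, had 10.24 in Kindlin-2 shRNA and 9.80 in control shRNA (0.44). None of the 4 kept genes of this list passed 1.5-fold, and HSF2 had no cluster with a single symbol. Of 20 kept genes listed as heat-inducible, 15 were members and STIP1, FKBP4, CHORDC1, SERPINH1 and UBB were not. The list is broad, since it also holds HSP90AB1 (0.18) and HSPA8 (0.28), both described above as constitutive and both above 0. Of the 20, 15 lay above 0, against 46.4% of all genes kept, and the median was 0.21. At least 1.5-fold higher were 3 (DNAJB4, HSPH1 and CHORDC1), beside 5.1% of all genes kept. None were 1.5-fold lower, beside 5.23% of all genes kept. Less its neighbours HSPH1 stood under 1.5-fold. SERPINH1, the collagen chaperone, differed by -0.27 and lay below 0 with HSPB1, HSPB8, DNAJA1 and FKBP4.

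Mitochondrial chaperones and proteases outside the members lay near 0. Of 13 kept genes 4 were above 0, none passed 1.5-fold and the median was -0.10. TRAP1, the Hsp90 of mitochondria, differed by -0.11 and the exchange factor GRPEL1 by -0.08. BCS1L, an assembly factor of respiratory complex III, differed by 0.33 and the disaggregase CLPB by 0.24, more than the other genes of the list. The 7 chaperones of the endoplasmic reticulum, the 6 left out above and HSP90B1, were all above 0 with a median of 0.56. Among all genes kept 46.4% were above 0. HSPA5 (BiP) had 11.71 in Kindlin-2 shRNA and 10.84 in control shRNA (1.83-fold), and HSP90B1 (Grp94) had 12.72 in Kindlin-2 shRNA and 11.92 in control shRNA (1.74-fold). DNAJB11 had 8.92 in Kindlin-2 shRNA and 8.26 in control shRNA (1.58-fold). The 4 others differed by 0.06 to 0.56. The 3 past 1.5-fold stand beside 5.1% of all genes kept. HSPA5 and HSP90B1 lie on chromosomes 9 and 12, against the direction of those chromosomes.

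**Figure D5:**
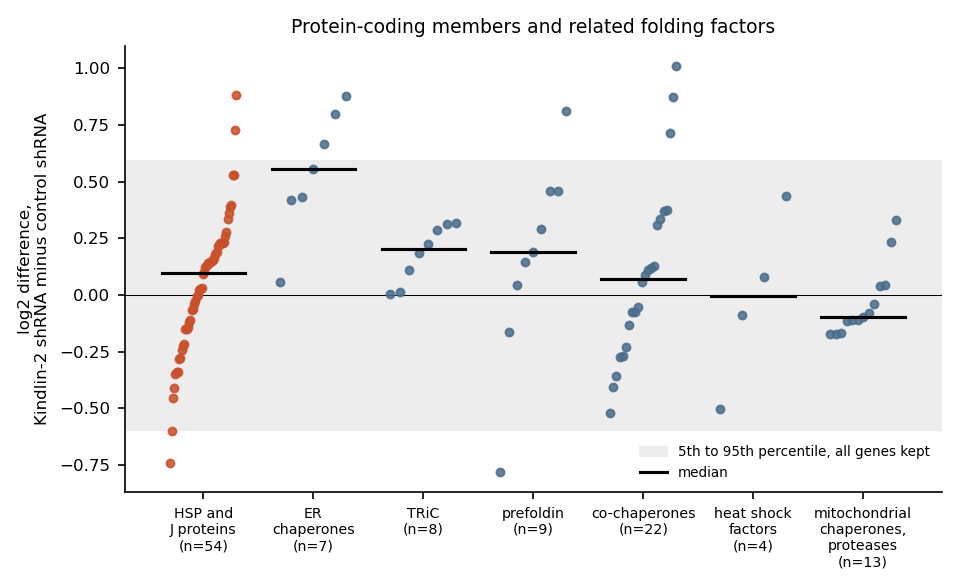
Log2 difference (Kindlin-2 shRNA minus control shRNA, vertical axis) of the 54 kept protein-coding members and of the kept genes of 6 related lists, with 1 point per gene and a bar at the median of each list. The median is 0.10 for the members, 0.56 for the 7 chaperones of the endoplasmic reticulum, 0.20 for TRiC and -0.10 for mitochondrial chaperones and proteases, and the grey band is the 5th to 95th percentile of all genes kept.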

How the data were processed

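Per the submitters' processing notes, the tools were RMA and Affymetrix Expression Console 1.4.1; the authors deposited log2 values of 33297 transcript clusters. RMA corrects background, equalises the arrays and summarises probes. The sources used here do not name the probe library or which arrays were normalised together. Groups came from the shRNA label. Platform symbols were updated through Entrez IDs to RefSeq (GRCh38.p14): 19460 clusters had 1 symbol, 1754 several and 12083 none. Of several clusters of a gene the one with the highest mean was used. The floor was 6.52. Differences were Kindlin-2 shRNA minus control shRNA, and the fold threshold was 1.5. No test was possible with 1 array in each group, and the number of arrays limits the precision. Named members were those past 1.5-fold, the 15 with the largest differences and the 2 with the highest values in each class; both values of other members were added where a statement turned on them. In related lists, up to 3 genes in each direction past 1.5-fold were named, beside HSF1 and the endoplasmic reticulum chaperones; other genes of these lists were named after their values were seen. Members and lists were chosen with earlier results of these data known. Counting and neighbour subtraction were run on simulated data with large set differences and little noise. That run checks the code, not the precision of the values here. Python 3.11.15, pandas 2.3.3, numpy 2.4.6 and statsmodels 0.14.6 were used.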

Additional observations from a re-analysis of the deposited data

Results flagged for a closer look

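Clusters that carry more than 1 gene symbol stand outside the members, and 4 of the 6 named only for Hsp70 genes were at least 1.5-fold higher in Kindlin-2 shRNA than in control shRNA, or 3 of 5 when identical values are counted once. Among all 1098 kept clusters with several symbols 4.92% were. For HSPA1A and HSPA1B, the chief heat-inducible Hsp70 pair, cluster 8118314 had 9.74 in Kindlin-2 shRNA and 9.12 in control shRNA, a difference of 0.62 on the log2 scale. Clusters 8178086 and 8179324 held identical values, 9.80 in Kindlin-2 shRNA and 9.20 in control shRNA (0.61), and count as 1 measurement. The other 2 clusters of the pair differed by 0.53 and 0.49, under 1.5-fold. Cluster 7906775, named for HSPA6 and HSPA7, had 8.98 in Kindlin-2 shRNA and 8.21 in control shRNA (0.77). Which gene of each pair the signal came from was not tested.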

How the results depend on the processing

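The number of members at least 1.5-fold higher in Kindlin-2 shRNA was 6, and 2 when pseudogenes were left out, which was added after seeing the data. It was 5 of 56 with the filter on the mean of both values, 4 of 43 with the floor 1 log2 unit higher, 4 with neighbour medians subtracted, 8 of 61 with clusters of several member symbols added, 1 at a threshold of 2-fold and 10 at 1.3-fold. The number at least 1.5-fold lower was 2. It was 1 with the filter on the mean of both values, and 0 with the floor 1 log2 unit higher, with chromosome medians or neighbour medians subtracted, and at 2-fold, and it was 4 at 1.3-fold. Shares of all genes at 2-fold, at 1.3-fold, with the filter on the mean or with the higher floor were not computed. The member counts at those settings therefore have no background beside them. The median of 0.12 stayed between 0.10 and 0.14 when 1 choice was changed at a time. With 2 changed together it was 0.06 for the 66 protein-coding members without a filter, and over all 77 members 0.07 less neighbours. Members above 0 were 36 of 59, 45 of 77 without a filter, 27 of 43 with the higher floor, 39 of 59 after repeated quantile normalisation and 31 of 54 without pseudogenes. FERMT2 stayed between -1.10 and -1.18. Of 28 members named by the rule, DNAJA1 changed sign with chromosome medians subtracted, and DNAJA1 and DNAJA2 with neighbour medians subtracted. With chromosome medians subtracted BAG1, DNAJC22 and HSP90AA4P no longer passed 1.5-fold and DNAJB6 did. With neighbour medians subtracted BAG1, DNAJC22, HSP90AA4P, HSP90AB3P and HSPH1 no longer passed 1.5-fold and DNAJB6 did. A loess, median or repeated quantile correction changed no sign and no call among the 28. The median of members with a heat shock element match was 0.28 with 3 units and 0.15 with 2 units, an alternative added after seeing the data. Dim values have no detection call, which limits DNAJC22 and HSP90AA6P. No paired analysis was possible because each group holds 1 array.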
